A study of Mus musculus with 48 samples.

Results

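The livers of mice that carried an activated β-catenin allele together with a MYC transgene in hepatocytes were compared with control livers 4 days after induction, in RPFs (ribosome-protected fragments, stretches of mRNA that a translating ribosome shielded from RNase) and in cytoplasmic RNA. The comparison used 12 of the 48 libraries of the series, chosen by their titles alone: 3 RPF and 3 RNA libraries from BM mice (Ctnnb1ex3/+; R26-LSL-MYC) and as many from WT mice, with each RPF and RNA library pair taken from 1 mouse. In the Ctnnb1ex3 allele, Cre removes the exon that marks β-catenin for degradation, and R26-LSL-MYC expresses MYC from the Rosa26 locus once Cre has removed a stop cassette. RPF libraries of mice with 1 allele each at the same time, B (Ctnnb1ex3/+) and M (R26-LSL-MYC), with 3 mice a group, were set beside BM at the end.

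All mice, WT included, were labelled as males of 2 to 4 months, whereas the study's general methods name both sexes. They had a mixed C57BL/6 background and were injected in the tail vein with AAV8.TBG.Cre, a virus that expresses Cre from a hepatocyte promoter. Recombination was therefore limited to hepatocytes, whereas the lysate was made from whole ground liver and also held RNA of Kupffer, endothelial, stellate and blood cells. In such bulk samples, fewer cells of a type and less RNA per cell cannot be told apart.

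Hepatocytes divide the work of the liver by their place between the portal and the central vein. Periportal (zone 1) cells make glucose and urea, pericentral (zone 3) cells make glutamine and carry out much of the drug and bile acid metabolism, and Wnt signals from the central vein act through β-catenin to set the zone 3 programme. MYC is a transcription factor known for its effect on ribosome production, nucleotide synthesis and the cell cycle. Hepatocytes also secrete most plasma proteins, which fill a large share of their mRNA.

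The RPF libraries held 9742197 to 12739173 counts in WT mice and 12820973 to 13888368 in BM mice, and the RNA libraries 5101657 to 5908325 and 4811466 to 5411080. The first principal component separated BM from WT mice in both kinds of library and held 81.9% of the variance for RPFs and 72.7% for RNA. Of 11375 genes tested for RPFs, 2575 were higher and 2352 lower in BM at an adjusted p under 0.05 (edgeR's quasi-likelihood test, Benjamini-Hochberg adjustment), that is 43.3% of all genes, 22.6% higher and 20.7% lower. Of 11211 genes tested for RNA, 1933 were higher and 1840 lower, or 33.7%, with 17.2% higher and 16.4% lower. A count of genes in a list called below is to be read against these shares. The median change over all genes was close to 0 by construction, because the libraries were scaled so that most genes do not change (TMM). With the library totals as the only scaling, the median gene moved up in BM by 0.424 on the log2 scale for RPFs and 0.542 for RNA, and the calls split into 6160 higher and 839 lower for RPFs and 6943 and 512 for RNA. All changes below are therefore relative to the median gene, and the counts with library totals are given beside the groups whose RPF direction they turned.

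The targeted genes were examined first. Levels are given as CPM, counts scaled to a library of 1000000. RPFs on Ctnnb1 stood at 387, 362 and 381 CPM in the WT mice and 373, 371 and 367 CPM in the BM mice, with a log2 change of -0.02 ± 0.07 that did not pass the test, although it rose with library totals as the only scaling. A count over the coding sequence does not separate the allele that lacks the exon from the intact one. RPFs on Myc stood at 17.9, 2.37 and 12.9 CPM in the WT mice and 43.7, 59.3 and 56.0 CPM in the BM mice, a log2 change of 2.22 ± 0.39 (adjusted p = 0.00086), while RNA on Myc stood at 26.9, 25.2 and 27.9 CPM in WT and 18.5, 28.1 and 22.1 CPM in BM and did not pass the test (-0.22). The BM mice were above every WT mouse for RPFs on Myc, and the 3 WT mice differed widely among themselves. Whether reads of the transgene count toward the mouse gene is not given in the sources used here.

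The zone 3 genes were higher in BM. Of 26 zone 3 metabolic genes, 22 were higher and 2 lower in RPFs, with a median log2 change of 0.91 over all 26, and 22 were higher and 1 lower in RNA, with a median of 1.12. Glul, the glutamine synthetase of the cells next to the central vein, gave 832, 842 and 810.2 CPM in the WT mice and 3586, 4215 and 4159 CPM in the BM mice, a log2 change of 2.27 ± 0.10 (adjusted p = 7.2e-08). Rhbg, an ammonium transporter of the same cells, had the largest change of the list at 2.54 ± 0.16, from 17.6, 11.3 and 15.1 CPM in WT to 71.8, 101 and 86.1 CPM in BM. The glutamate transporter Slc1a2 went from 135, 112 and 107 to 412, 473 and 378 CPM, the neutral amino acid transporter Slc1a4 from 18.4, 13.5 and 18.0 to 76.5, 80.9 and 81.0 CPM, and Oat, which turns ornithine toward glutamate, from 595, 574 and 516 to 2185, 1659 and 1951 CPM. For each of these 5 genes the lowest BM mouse was above the highest WT mouse by more than the range within either group.

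The zone 3 enzymes of xenobiotic and bile acid metabolism gave smaller changes. Cyp2e1, a P450 that oxidises ethanol and other small molecules, stood at 4571, 5151 and 4945 CPM in the WT mice and 6589, 9524 and 7436 CPM in the BM mice, a log2 change of 0.68 ± 0.13. Cyp1a2, a P450 under the aryl hydrocarbon receptor, went from 1064, 1073 and 1033 to 1869, 2121 and 2108 CPM (0.94 ± 0.09). Cyp7a1, the rate-limiting enzyme of bile acid synthesis, went from 106, 86.9 and 135 to 298, 212 and 199.6 CPM (1.12 ± 0.17). Gulo, the last enzyme of vitamin C synthesis, went from 627, 645 and 599 to 1460.2, 1607 and 1550.0 CPM. The secreted factor Lect2 rose by 1.73, Lhpp by 1.98, the organic anion transporter Slco1b2 by 0.96 and Rgn by 0.88 on the log2 scale. Cyp3a11, a P450 that degrades many drugs, went the other way, from 3971, 3447 and 4004 to 2021, 2198 and 2155 CPM (-0.84 ± 0.09). The P450 Cyp27a1 and the transporter Slc22a3 of the same list were also below 0, at -0.39 and -0.34. Of all RPFs, zone 3 genes took 1.94% ± 0.0402 in WT and 4.18% ± 0.169 in BM, and of all RNA counts 1.23% ± 0.0707 in WT and 3.43% ± 0.261 in BM (mean ± SD, n = 3). The 3 BM mice were above the 3 WT mice in both, and the exact permutation p was 0.1, the smallest that 3 against 3 mice allow.

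**Figure D1:**
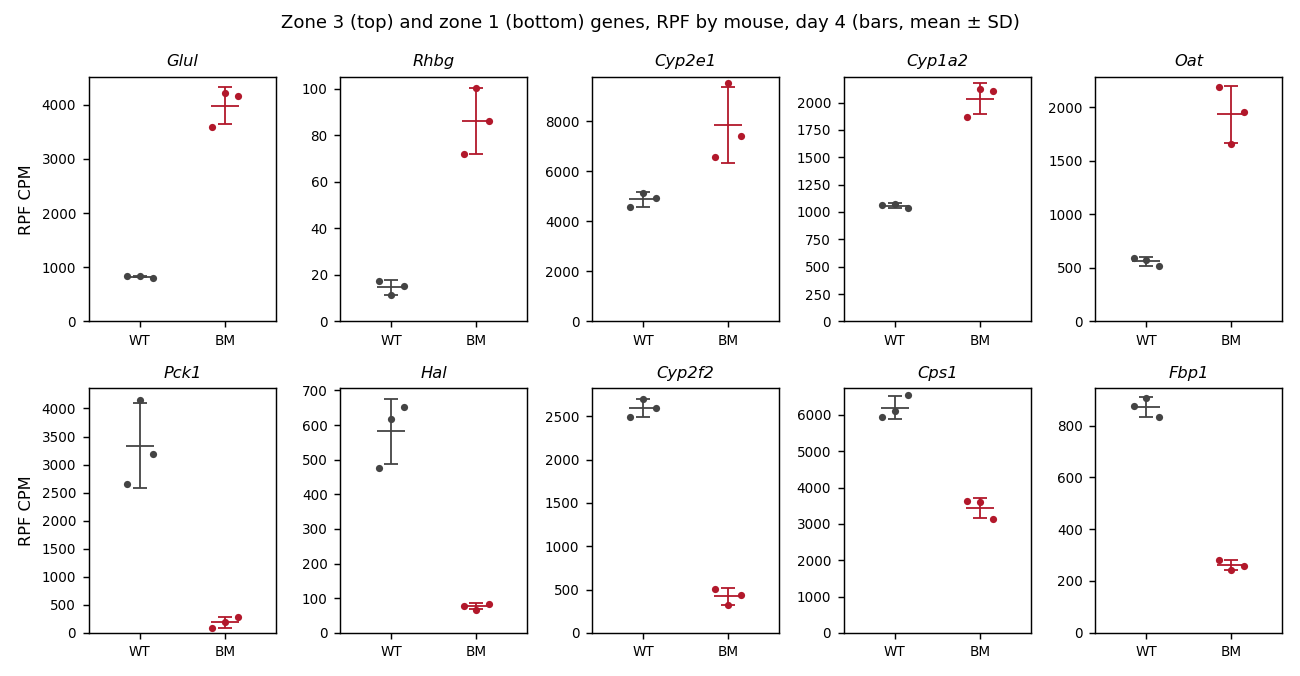
RPF level (CPM after TMM scaling) of 5 zone 3 genes in the upper row and 5 zone 1 genes in the lower row, with 1 point per mouse and the mean ± SD of 3 WT and 3 BM mice. In each of the 10 panels the WT and BM mice do not overlap, with BM above WT in the upper row and below it in the lower row.

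The genes of the Wnt pathway itself, a list of receptors, feedback inhibitors and targets, gave 10 higher and 1 lower among the 15 tested of 19 in RPFs, and 10 higher and 1 lower of 14 in RNA. The median log2 change was 2.06 for RPFs and 1.78 for RNA, and the 4 members below the count filter for RPFs were Apcdd1, Lef1, Wif1 and Zfp703. Axin2, a scaffold of the β-catenin destruction complex, went from 2.79, 3.44 and 3.33 to 27.2, 28.5 and 23.6 CPM (3.06 ± 0.15). Tnfrsf19 went from 0.990, 1.78 and 2.00 to 14.9, 13.1 and 14.5 CPM (3.18 ± 0.21). The R-spondin receptor Lgr5 went from 17.2, 17.5 and 17.2 to 91.1, 91.9 and 75.9 CPM (2.32 ± 0.10), and the secreted Wnt deacylase Notum from 25.1, 26.7 and 30.1 to 60.2, 83.1 and 70.3 CPM (1.38 ± 0.13). The feedback inhibitor Nkd1 rose by 2.91, the ubiquitin ligases Rnf43 and Znrf3, which remove Wnt receptors, by 2.25 and 2.06, and the transcription factor Tbx3 by 1.24. Sp5, a transcription factor that responds to Wnt, rose by 2.72 from 0.990, 0 and 0.666 to 5.48, 3.28 and 2.98 CPM. The exception was the receptor Lgr4, which was lower in every BM mouse (-0.77 ± 0.10). Several of these genes rest on few counts in WT, and without WT mouse 1 the change of Sp5 was 3.48.

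The promoters of genes that moved together are shown for 2 motifs, because both factors named by the alleles have a known DNA word: CTTTGAT (or ATCAAAG on the other strand), bound by TCF factors with β-catenin, and CACGTG, the E-box bound by MYC with MAX, which reads the same on both strands. The 250 bases before each start were taken from RefSeq on GRCm38.p6, and the 2 motifs share no bases in what follows. CTTTGAT was found for 3.72% of the 27025 genes of the table, for 2 of the 11 matched Wnt pathway genes, for 3 of the 20 matched zone 3 genes and for 0 of the 41 matched ribosome biogenesis genes. CACGTG was found for 6.86% of all genes, for 3 of the 11 Wnt pathway genes, for 3 of the 20 zone 3 genes and for 2 of the 41 ribosome biogenesis genes. Of these Wnt pathway genes, Lef1 and Wif1 were below the count filter for RPFs, so no RPF change is known for them. A gene counted as a match when any of its listed starts matched. By start, CACGTG was found for 16.7% in the Wnt pathway list and 6.02% over all genes. Tnfrsf19 has another listed start, not shown, with neither motif. A match describes the letters and is no binding site, and the lists were not tested for these words. The sequences run 5′ to 3′ up to the base before the start, with the motifs in capitals.
Sp5 (chr2:70474673-70474922, plus strand; CTTTGAT): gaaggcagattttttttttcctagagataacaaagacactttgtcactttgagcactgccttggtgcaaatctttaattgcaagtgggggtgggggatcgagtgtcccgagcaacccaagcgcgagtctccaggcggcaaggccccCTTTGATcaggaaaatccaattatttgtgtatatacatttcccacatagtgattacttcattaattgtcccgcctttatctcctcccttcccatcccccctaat
Tnfrsf19 (chr14:61037988-61038237, minus strand; ATCAAAG and CACGTG): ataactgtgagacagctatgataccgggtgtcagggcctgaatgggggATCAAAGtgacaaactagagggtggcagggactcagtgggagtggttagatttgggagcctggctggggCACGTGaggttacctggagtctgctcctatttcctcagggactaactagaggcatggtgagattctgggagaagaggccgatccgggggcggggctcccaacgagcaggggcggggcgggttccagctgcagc
Lect2 (chr13:56548539-56548788, minus strand; ATCAAAG): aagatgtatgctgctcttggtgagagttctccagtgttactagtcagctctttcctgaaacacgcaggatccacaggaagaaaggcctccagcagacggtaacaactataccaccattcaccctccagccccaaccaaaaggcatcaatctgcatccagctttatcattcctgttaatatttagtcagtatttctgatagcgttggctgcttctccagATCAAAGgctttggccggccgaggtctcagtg
Slc1a2 (chr2:102706188-102706437, plus strand; ATCAAAG): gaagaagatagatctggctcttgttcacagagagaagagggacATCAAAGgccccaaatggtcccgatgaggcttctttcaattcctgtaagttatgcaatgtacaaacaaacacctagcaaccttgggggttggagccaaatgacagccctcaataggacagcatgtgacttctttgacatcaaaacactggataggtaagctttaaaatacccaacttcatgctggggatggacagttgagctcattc
Rrn3 (chr16:13780449-13780698, plus strand; CACGTG at both marked places): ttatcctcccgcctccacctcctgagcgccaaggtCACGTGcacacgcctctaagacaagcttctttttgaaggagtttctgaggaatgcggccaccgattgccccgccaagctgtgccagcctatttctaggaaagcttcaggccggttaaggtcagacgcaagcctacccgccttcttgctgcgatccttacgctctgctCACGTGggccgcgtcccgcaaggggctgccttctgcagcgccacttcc
Of the genes shown, Sp5 and Tnfrsf19 belong to the Wnt pathway list, Lect2 and Slc1a2 to zone 3, and Rrn3, an initiation factor of RNA polymerase I, to ribosome biogenesis.

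The zone 1 genes were lower in BM. Of 28 zone 1 genes, 26 were lower and 1 higher in RPFs, with a median log2 change of -1.40, and of 27 tested in RNA, 25 were lower and 1 higher, with a median of -1.54. Pck1, the enzyme that commits oxaloacetate to glucose synthesis, fell most, with 2662, 4153 and 3189.7 CPM in the WT mice and 86.5, 191 and 284 CPM in the BM mice, a log2 change of -4.16 ± 0.36 (adjusted p = 6.2e-06), or 17.8-fold lower. The further enzymes of glucose output G6pc1 and Fbp1 went from 694, 1070.1 and 911 to 196, 302 and 298 CPM (-1.75 ± 0.18) and from 877, 907 and 832 to 281, 242 and 257 CPM (-1.75 ± 0.09). Hal, which opens the histidine degradation pathway, went from 476, 618 and 652 to 78.2, 67.2 and 84.0 CPM (-2.93 ± 0.13), and Uroc1, the next enzyme of it, changed by -1.56 on the log2 scale. Cyp2f2, a P450 of periportal cells, went from 2499, 2703 and 2601 to 504, 318 and 441 CPM (-2.63 ± 0.15). The BM mice were below the WT mice for each of these genes, and for Pck1 the BM mice also differed widely from each other.

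Cps1, which enters ammonia into the urea cycle, went from 5936, 6101 and 6558 to 3624, 3593 and 3128 CPM (-0.85 ± 0.10). The further urea cycle enzymes Asl, Ass1 and Otc had log2 changes of -1.06, -1.02 and -0.69. The amino acid degrading enzymes Tat (tyrosine), Sds (serine) and Gls2 (glutamine) changed by -2.05, -2.01 and -1.34, and the immunoglobulin carrier Pigr and the adhesion protein Cdh1 by -1.58 and -0.90. Aldh1b1, a mitochondrial aldehyde dehydrogenase, was the 1 zone 1 gene that rose, with 72.9, 75.2 and 109 CPM in the WT mice and 217, 196 and 184 CPM in the BM mice (1.22 ± 0.14). Of all RPFs, zone 1 genes took 2.72% ± 0.218 in WT and 1.40% ± 0.0823 in BM, and of all RNA counts 1.53% ± 0.114 in WT and 0.844% ± 0.0220 in BM, again with no overlap of the mice and an exact permutation p of 0.1.

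Of 7 zone 2 genes, 5 were lower and 1 higher in RPFs. The sterol hydroxylase Cyp8b1 went from 629, 725 and 728 to 165, 142 and 81.5 CPM (-2.42 ± 0.21), and the iron hormone Hamp changed by -1.87. Igfbp2, a binding protein of insulin-like growth factors, stood at 364, 306 and 315 CPM in the WT mice and 266, 241 and 207 CPM in the BM mice (-0.46 ± 0.11), and its RNA changed by -0.49. Both calls rest on the scaling, since library totals gave -0.038 in RPFs and 0.056 in RNA, neither of them called. The cyclin Ccnd1 was the 1 higher gene, with 38.6, 31.8 and 37.7 CPM in the WT mice and 44.3, 43.1 and 50.1 CPM in the BM mice (0.34 ± 0.10), which lost the call without WT mouse 2 (0.26) or BM mouse 3 (0.28), and its RNA did not pass the test (0.10).

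Among the enzymes of the urea cycle and amino acid degradation, 26 of 45 were lower and 5 higher in RPFs, with a median of -0.54, whereas library totals gave 17 higher and 18 lower. Amdhd1, which follows Uroc1 in histidine degradation, went from 224, 257 and 261 to 44.7, 50.3 and 48.6 CPM (-2.37 ± 0.09), so that Hal, Uroc1 and Amdhd1 were all lower. Kynu of the tryptophan pathway changed by -1.53. Prodh, which starts the degradation of proline, rose from 110.1, 113 and 140.1 to 223, 282 and 250.1 CPM (1.06 ± 0.11).

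In glycolysis and gluconeogenesis, 15 of 36 genes were lower and 5 higher in RPFs, with a median of -0.28 that turned to 0.15 with library totals (14 higher and 8 lower). Besides Pck1, G6pc1 and Fbp1, the liver pyruvate kinase Pklr was lower (-0.54), a call that library totals ended at -0.12. Pck2, the mitochondrial counterpart of Pck1, was higher, at 5.22, 4.27 and 4.44 CPM in the WT mice and 12.3, 13.3 and 11.7 CPM in the BM mice (1.41 ± 0.15).

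In serine and one-carbon metabolism, RPFs were lower on 12 of 25 genes and higher on 7, with a median of -0.12 that turned to 0.31 with library totals (12 higher and 7 lower). Among the 21 genes with at least 10 counts in every library, 12 were lower and 4 higher, with a median of -0.47. Bhmt, which remakes methionine from betaine, was lower, with 3905, 4395 and 4776 CPM in WT and 1385, 1159 and 1326 CPM in BM (-1.76 ± 0.11). Gnmt, Cbs and Mat1a, which use or make S-adenosylmethionine or its products, changed by -1.16, -0.86 and -0.73. Mat2a, the form of the same enzyme as Mat1a that dividing cells use, was higher instead, with 89.0, 93.1 and 78.5 CPM in the WT mice and 209, 196 and 197 CPM in the BM mice (1.21 ± 0.08). The serine synthesis enzyme Psat1 went from 1.98, 1.66 and 0.888 to 19.6, 19.4 and 16.3 CPM (3.58 ± 0.21), and Mthfd2, the mitochondrial folate enzyme of growing cells, rose by 1.86. Phgdh, the first enzyme of serine synthesis, went from 1.44, 0.948 and 0.666 to 9.27, 13.7 and 5.42 CPM in RPFs (3.17 ± 0.40), while its RNA stood at 6.15, 7.49 and 4.58 CPM in WT and 6.41, 9.04 and 5.48 CPM in BM (0.19, not called). The WT counts behind Phgdh and Psat1 were low, as few as 6 and 8 RPFs in a library.

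Nucleotide synthesis and the pentose phosphate pathway were higher, with 24 of 34 genes higher and 3 lower in RPFs, a median of 0.77, and 21 higher and 2 lower in RNA, a median of 0.54. Rrm2, the S phase subunit of ribonucleotide reductase, went from 6.66, 8.77 and 7.44 to 166, 81.0 and 105 CPM (3.95 ± 0.26). Cad, which starts pyrimidine synthesis, went from 40.1, 38.9 and 44.2 to 142, 111 and 112 CPM (1.57 ± 0.11), and Tyms, which makes thymidylate, from 11.3, 13.2 and 9.88 to 58.3, 34.7 and 39.9 CPM (1.95 ± 0.19). The CTP synthase Ctps1 rose by 1.95, the thymidine kinase Tk1 by 1.65, and the purine enzymes Impdh2, Pfas and Atic by 1.40, 1.38 and 1.12. Tkt of the pentose phosphate pathway rose by 0.52. BM mouse 1 was the highest of the BM mice for Rrm2, Cad and Tyms.

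Lipid genes split by pathway. In lipogenesis, 15 of 24 genes were lower and 0 higher in RPFs, with a median of -0.48, but library totals gave 7 higher and 9 lower with a median of -0.04, so that the direction of the list rests on the scaling. Scd1, which desaturates stearate, went from 3312, 3018 and 3784 to 1297, 941 and 1093 CPM (-1.60 ± 0.13), Elovl5, which lengthens unsaturated chains, from 370.0, 375 and 398 to 139.7, 143 and 128 CPM (-1.48 ± 0.08), and Thrsp, a regulator of fatty acid synthesis, from 147, 84.1 and 188 to 48.2, 32.5 and 40.2 CPM (-1.79 ± 0.24). These 3 genes were also lower with library totals. Fasn, the fatty acid synthase itself, stood at 1573, 1126 and 2017 CPM in the WT mice and 1684, 1559.5 and 1523 CPM in the BM mice, where the groups overlapped (0.02 ± 0.17, not called), and Acaca, which makes its substrate, changed by 0.06 (not called). In cholesterol synthesis and uptake, 15 of 25 genes were lower and 0 higher, with a median of -0.39 that library totals turned to 0.04 (4 higher and 3 lower).

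Fatty acid oxidation had 14 of 34 genes higher and 6 lower in RPFs with a median of 0.08, and library totals gave 28 higher and 3 lower with a median of 0.50. A few members moved far. Cyp4a14, a microsomal P450 that oxidises the far end of fatty acids and a target of PPARα, went from 5.40, 2.73 and 4.00 to 88.4, 91.9 and 60.7 CPM (4.28 ± 0.22), or 19.4-fold higher. Its relative Cyp4a10 went from 45.9, 43.0 and 32.4 to 299.7, 304 and 277 CPM (2.86 ± 0.12). The acyl-CoA thioesterases Acot1 and Acot2 went from 3.60, 2.25 and 2.55 to 20.8, 19.9 and 22.6 CPM (2.88 ± 0.17) and from 5.85, 5.93 and 4.22 to 29.9, 34.7 and 34.7 CPM (2.63 ± 0.14), and Pdk4, which keeps pyruvate from the mitochondrial acetyl-CoA pool, from 13.2, 12.9 and 12.1 to 41.9, 40.9 and 21.8 CPM (1.45 ± 0.22). Cyp4a and Acot genes have close relatives in the genome, and how reads were shared among them can move their values.

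The bile acid genes went both ways, 7 of 23 higher and 10 lower in RPFs, and 13 higher and 6 lower with library totals. Cyp7a1, Amacr (0.86) and the export pump Abcc2 (0.60) were higher, whereas Cyp8b1, which makes cholic acid, Cyp7b1 (-0.93) and the conjugating enzymes Baat (-1.21) and Slc27a5 (-0.78) were lower. Of 48 cytochromes P450, 12 were higher and 24 lower, with a median of -0.30 that turned to 0.13 with library totals (20 higher and 18 lower). The largest rise in that family after the Cyp4a genes was that of Cyp2c55 (2.33), and the largest fall that of Cyp2f2. The 37 conjugation enzymes tested (UGT, GST and SULT) gave 12 higher and 12 lower, and 22 higher and 2 lower with library totals. The nuclear genes of oxidative phosphorylation were shifted slightly, 38 of 81 lower and 3 higher with a median of -0.21, and library totals turned this to 39 higher and 2 lower. Of 38 proteasome subunits, 4 were lower and 1 higher, below the share over all genes, and library totals gave 33 higher and 2 lower.

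**Figure D2:**
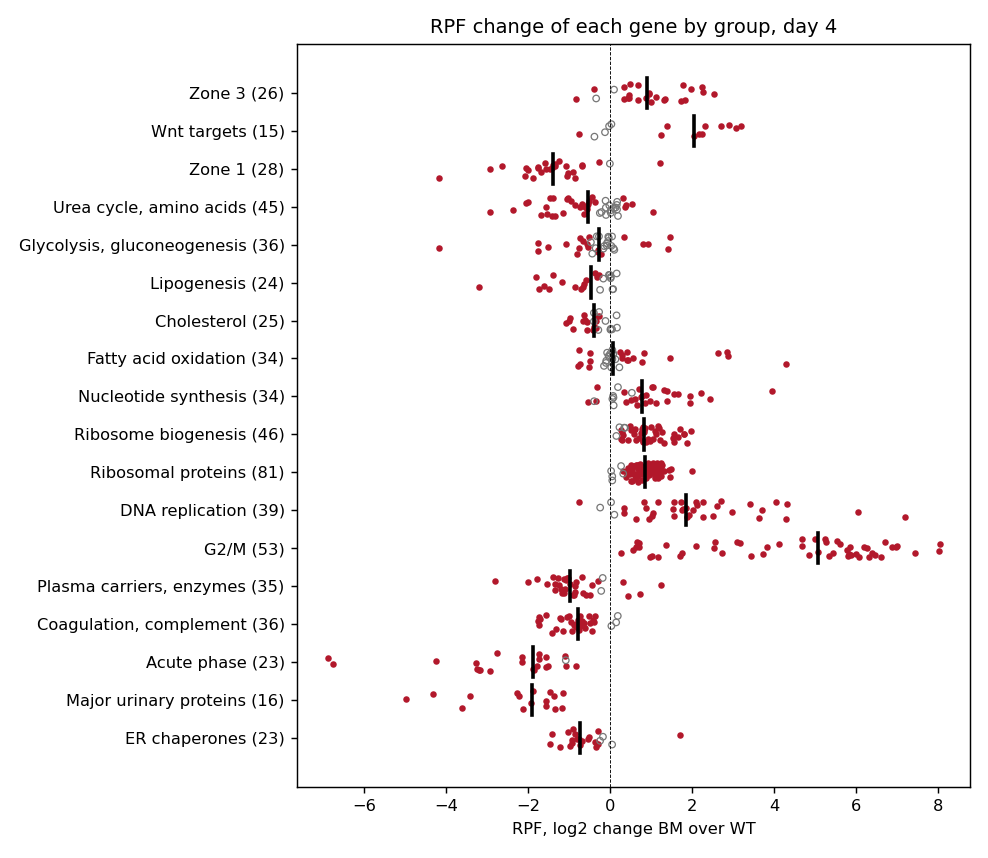
Log2 change of RPFs between BM and WT for each tested member of 18 gene groups (1 point per gene, filled red where the adjusted p was under 0.05, open where it was not, black line at the group's median). Zone 3, Wnt, nucleotide, ribosome and cell cycle genes lie mostly above 0 and zone 1 and secreted protein groups mostly below it, and with library totals as the only scaling the medians of glycolysis, lipogenesis and cholesterol genes become 0.15, -0.04 and 0.04.

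The genes of ribosome production were higher in BM. Of 46 ribosome biogenesis genes, 42 were higher and 0 lower in RPFs with a median of 0.83, and 31 were higher and 0 lower in RNA with a median of 0.74. Ncl, the nucleolar protein nucleolin, went from 216, 221 and 249 to 759.8, 654 and 593 CPM (1.55 ± 0.11, adjusted p = 1.1e-06), and Npm1, the nucleolar chaperone nucleophosmin, from 98.0, 94.4 and 126 to 368, 363 and 304 CPM (1.70 ± 0.12). Dkc1, which modifies ribosomal RNA, went from 20.2, 23.1 and 20.8 to 84.2, 72.2 and 68.0 CPM (1.81 ± 0.11), and its partner Gar1 rose by 1.96. The box C/D proteins Nop56 and Nop58 rose by 1.80 and 1.55, the polymerase I subunit Polr1b by 1.27, and the methyltransferase Nop2 by 1.11. Rrn3, shown above with its E-boxes, went from 35.5, 37.8 and 33.5 to 70.3, 65.8 and 67.2 CPM (0.93 ± 0.08). Nop16 changed by 0.15 and was not called.

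Of 81 cytosolic ribosomal protein genes tested, 76 were higher and 0 lower in RPFs with a median of 0.86, and of 85 in RNA, 77 were higher and 1 lower with a median of 0.73. Their share of RPFs was 0.595% ± 0.0598 in WT and 1.42% ± 0.0684 in BM, and their share of RNA counts 1.61% ± 0.127 in WT and 3.94% ± 0.111 in BM. These genes have many processed copies in the genome, so single members are uncertain. Of 47 translation factors, 23 were higher and 2 lower, with a median of 0.28, of 20 cytosolic aminoacyl-tRNA synthetases 12 were higher and 1 lower, and of 78 mitochondrial ribosomal proteins 32 were higher and 1 lower, with a median of 0.23. In polyamine synthesis 6 of 14 genes were higher and 2 lower. The spermidine synthase Srm went from 33.5, 23.6 and 34.0 to 82.5, 59.8 and 68.9 CPM (1.21 ± 0.15), and Odc1, the first enzyme of the pathway, rose by 0.71. Among 11 genes of the MYC network, 4 were higher and 1 lower. The higher ones were Myc, Mga (0.79), Max (0.52) and Mxd3, which had at most 2 counts in a WT library and 4.52, 2.43 and 3.57 CPM in the BM mice. The lower one was Mlx (-0.32; 0.11 with library totals, and not called without WT mouse 1, WT mouse 3, BM mouse 2 or BM mouse 3). Max lost the call without any 1 of the 3 WT mice or BM mouse 3 (0.42 to 0.54). Mtor, the growth kinase, stood at 112, 124 and 112 CPM in the WT mice and 105, 119 and 118 CPM in the BM mice (-0.02, not called), and it rose with library totals.

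The G2/M genes had the highest median of the lists. All 53 G2/M genes tested of 54 were higher in RPFs, with a median of 5.07, or 4.99 with genes of at most 3 WT counts held at a bound, and 49 of 53 were higher in RNA, with a median of 2.64. Limited to genes with at least 10 counts in every library, the medians were 2.10 and 1.51. In RNA the Wnt pathway genes then had a higher median (1.65). Of 39 DNA replication genes, 35 were higher and 1 lower in RPFs with a median of 1.86, and of 43 S phase genes, 40 were higher and 0 lower. Among those with at least 10 counts in every library, 26 of 30 DNA replication genes were higher and 1 lower, with a median of 1.67, and 28 of 31 S phase genes were higher and 0 lower. The helicase subunits Mcm5 and Mcm6 rose by 3.64 and 3.69. The share of RPFs on G2/M genes was 0.0700% ± 0.00240 in WT and 0.367% ± 0.0957 in BM, with 0.473, 0.287 and 0.342% in the 3 BM mice, the highest of them in BM mouse 1.

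The largest single changes were taken among genes called the same way in RPFs and RNA, with at least 10 counts in each of the 12 libraries and no overlap of the mice, which 1237 genes met upward and 1305 downward. Over all genes tested, the mice did not overlap for 54.4% in RPFs and 46.7% in RNA. The 10 that rose most were the mitotic kinesins Kif20a (6.48 in RPFs and 3.11 in RNA) and Kif11 (5.52 and 2.35), the proliferation antigen Mki67 (5.86 and 5.72), Top2a (5.44 and 1.50), the cytokinesis factor Ect2 (5.25 and 1.98), Cip2a (4.96 and 2.72), the chromatin remodeller Hells (4.19 and 1.51), the tubulin-binding Stmn1 (4.11 and 1.27), the DNA polymerase Pole (4.05 and 1.89) and Rrm2. The 10 that fell most were the serum amyloids Saa1, Saa2 and Saa3 and the urinary proteins Mup15, Mup16 and Mup17, all described below, Pck1, the adipokine Serpina12 (-3.45 and -3.14), the carboxylesterase Ces2b (-3.39 and -1.50) and Selenbp2 (-3.33 and -3.11). Because counts in WT were required, strongly induced genes with almost no WT reads could not enter.

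The secreted proteins made up a smaller share of RPFs in BM. The 10 most abundant genes of WT took 17.9% of RPFs in WT and 11.5% in BM, and the 10 most abundant in RNA took 19.3% and 9.69%. These genes were picked by their level in the same WT libraries, which favours a lower share in BM, and not for being secreted. Plasma carriers and enzymes took 17.4, 17.5 and 18.6% of RPFs in the WT mice and 10.7, 12.2 and 11.2% in the BM mice, and coagulation and complement genes took 8.30% ± 0.572 in WT and 5.42% ± 0.504 in BM (mean ± SD, n = 3). The WT and BM mice did not overlap, with an exact permutation p of 0.1 for each. Apolipoproteins took 4.70% ± 0.0569 in WT and 4.34% ± 0.156 in BM of RPFs, and in RNA, where the mice overlapped, 4.28% ± 0.217 in WT and 4.42% ± 0.223 in BM (exact permutation p = 0.4). A share needs no scaling factor, but it falls when other genes rise.

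Of 35 plasma carriers and enzymes tested, 29 were lower and 4 higher in RPFs, with a median of -0.97. Albumin (Alb), the main plasma protein, gave 46626, 52514 and 55378 CPM in the WT mice and 21614, 27036 and 22792 CPM in the BM mice (-1.11 ± 0.13), and the iron carrier transferrin (Trf) 20248, 21899 and 24488 CPM in the WT mice and 8278, 9768 and 9522 CPM in the BM mice (-1.27 ± 0.12). The protease inhibitor Serpina3k went from 14766, 15144 and 15454 to 4453, 4474 and 4248 CPM (-1.78 ± 0.09), and the haem carrier Hpx from 10899, 7685 and 10595 to 2333, 2795 and 2207 CPM (-1.99 ± 0.15). Igf1, the growth factor the liver sends into the blood, went from 269.7, 311 and 274 to 136, 119 and 137 CPM (-1.12 ± 0.09). Every BM mouse was below every WT mouse for these genes. The 4 that rose were the corticosteroid carrier Serpina6, from 169, 188 and 213 to 407, 509 and 441 CPM (1.25 ± 0.11), the thyroxine carrier Serpina7 (0.72), the paraoxonase Pon1 (0.44), which is also on the zone 3 list, and the cholinesterase Bche (0.32), whose call was lost without WT mouse 1 (0.23) or BM mouse 2 (0.25).

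Of 15 apolipoprotein and lipoprotein assembly genes, 13 were lower and 0 higher in RPFs, with a median of -0.73. Apoa1, the main protein of high-density lipoprotein, went from 9397, 9431 and 9537 to 3852, 5032 and 4085 CPM (-1.13 ± 0.11), and Apoe changed by -0.60. Apob, the backbone of very low-density lipoprotein, changed by -0.28 ± 0.10, a call that was lost when any mouse other than BM mouse 2 was left out (-0.31 to -0.24) and that turned to 0.14 with library totals. Of 36 coagulation and complement genes, 33 were lower and 0 higher, with a median of -0.79, and the 3 not called were F13b, Pros1 and F5. Fga, a chain of fibrinogen, went from 15619, 11881 and 14119.5 to 3650.3, 4792 and 4155 CPM (-1.72 ± 0.14), and the other chains Fgb and Fgg changed by -1.73 and -1.57.

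The acute-phase proteins, which the liver releases in inflammation, had a lower median than the carrier, coagulation and apolipoprotein lists. Of 23 genes, 22 were lower and 0 higher in RPFs with a median of -1.87, and 21 were lower in RNA with a median of -2.16. Saa1 gave 1369.7, 167 and 1424 CPM in the WT mice and 8.67, 9.46 and 9.46 CPM in the BM mice (-6.75 ± 0.70), and Saa2 1354, 89.6 and 1393 CPM in the WT mice and 8.85, 7.81 and 7.47 CPM in the BM mice (-6.87 ± 0.86). The WT mice were not alike, with far fewer RPFs on these genes in mouse 2 than in mice 1 and 3, and every BM mouse still lay below mouse 2. Saa3 showed the same order, with 197, 37.3 and 218 CPM in WT and 8.31, 7.95 and 7.74 CPM in BM (-4.24 ± 0.52), while its RNA changed by -1.62. The serum amyloid P component Apcs went from 540.3, 233 and 417 to 37.5, 50.4 and 42.8 CPM (-3.19 ± 0.25), the orosomucoid Orm1 from 2133, 1402 and 2169 to 422, 458 and 409 CPM (-2.15 ± 0.15), and haptoglobin (Hp) from 8164, 5509 and 7061 to 1828, 2387 and 1819.9 CPM (-1.78 ± 0.16). Lbp, Cp, Itih4 and Crp changed by -2.16, -1.55, -1.09 and -1.08. Lcn2 (-3.26) and the metallothioneins Mt1 and Mt2 (-2.93 and -3.25) were called lower although a WT and a BM mouse overlapped, and without WT mouse 1 the changes of Mt1 and Mt2 fell to -1.21 and -1.44 and were not called. The group took 5.75, 4.10 and 5.18% of RPFs in the WT mice and 1.92, 2.36 and 2.07% in the BM mice.

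The major urinary proteins, small pheromone carriers that male mouse liver makes in bulk, were lower for all 16 genes tested in RPFs and all 22 in RNA. They took 21.3, 22.3 and 18.3% of RNA counts in the WT mice and 6.96, 5.62 and 5.84% in the BM mice, and their share of RPFs was 4.44% ± 0.618 in WT and 2.29% ± 0.213 in BM. Mup22 went from 22325, 28196 and 23195 to 10529.9, 9986 and 8637 CPM in RPFs (-1.34 ± 0.13), with an RNA change of -2.16, and Mup20 changed by -1.15 and -1.55. Mup17, Mup16 and Mup15 had RPF changes of -4.31, -3.60 and -3.40. Genes of this family are nearly identical, as are Saa1 and Saa2, so the values of single members depend on how reads were shared, and the RPF and RNA tables were made with different tools.

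The machinery of secretion was listed apart from its cargo. Of 23 endoplasmic reticulum chaperones and stress genes, 19 were lower and 1 higher in RPFs with a median of -0.73 (-0.31 with library totals), and 15 were lower and 0 higher in RNA, where library totals gave 9 higher and 9 lower. Hspa5, the main chaperone of the compartment, went from 3676, 2851 and 3185 to 1952, 1817 and 2013 CPM (-0.75 ± 0.11), and Herpud1, which serves in the degradation of misfolded proteins, from 301, 373 and 269 to 105, 86.8 and 149.9 CPM (-1.47 ± 0.18). Creld2, Hyou1 and the transcription factor Xbp1 changed by -1.43, -1.03 and -0.99, whereas the lectin chaperone Canx changed by 0.05 and was not called. Of 43 genes of translocation and vesicle transport, 13 were lower and 2 higher in RPFs and 4 lower and 2 higher in RNA, and library totals turned these counts to 26 higher and 3 lower in RPFs and 38 higher and 0 lower in RNA.

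**Figure D3:**
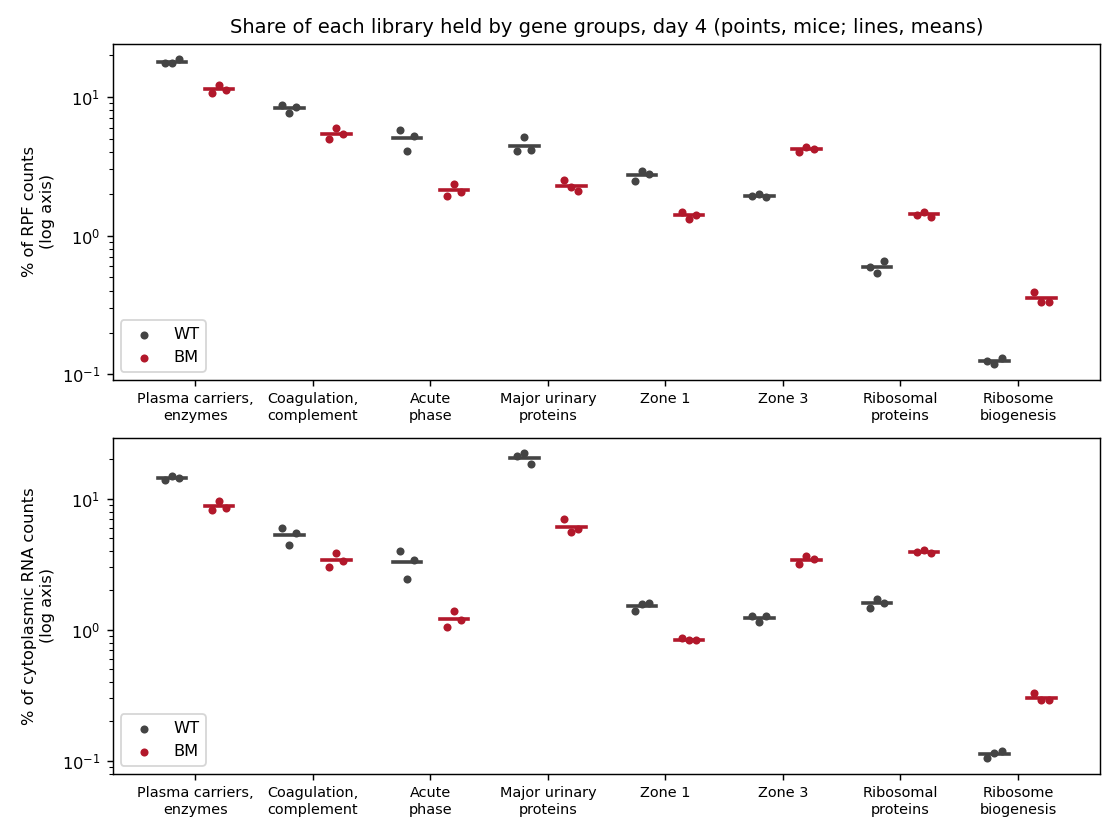
Percent of all counts of a library taken by 8 gene groups (log axis), with 1 point per mouse, for RPFs above and RNA below, in WT and BM. Plasma carriers, coagulation and complement, acute-phase, major urinary and zone 1 groups take less of the BM libraries and zone 3, ribosomal protein and ribosome biogenesis groups more, with no overlap of the 3 WT and 3 BM mice.

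Of 22 hepatocyte transcription factors, 9 were lower and 4 higher in RPFs, whereas library totals gave 10 higher and 3 lower. Foxa3 went from 79.5, 62.6 and 57.0 to 21.6, 18.0 and 25.1 CPM (-1.63 ± 0.15), Cebpb, a mediator of the acute-phase response, from 142, 126 and 132 to 41.5, 49.5 and 59.6 CPM (-1.41 ± 0.12), and Cebpa changed by -0.68. Hnf4a, a master regulator of hepatocyte genes, stood at 227, 217 and 212 CPM in the WT mice and 162, 166 and 164 CPM in the BM mice (-0.42 ± 0.07), and with library totals this became 0.0081. Among 12 progenitor and oncofetal genes tested of 21, Afp, the fetal counterpart of albumin, and Ly6d were higher and 6 were lower (3 higher and 3 lower with library totals). Afp went from 1.17, 2.85 and 2.33 to 22.2, 23.8 and 20.1 CPM (3.42 ± 0.22) and Ly6d from 0.450, 0.593 and 0.777 to 7.47, 6.83 and 7.41 CPM (3.58 ± 0.24), both from few WT counts, while Igfbp1 and Sox9 changed by -1.66 and -1.15. Of 17 clock genes, 8 were lower and 1 higher (4 higher and 5 lower with library totals), the lower ones including Bhlhe40 (-2.08) and Per2 (-1.15), while the core gene Bmal1 changed by -0.15 and was not called. The time of day of the harvest is not given in the sources used here.

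Markers of the cells in whole liver also moved, and not only those of hepatocytes. All 12 hepatocyte markers were lower in RPFs (7 with library totals), with a median of -0.82. Of 12 Kupffer cell markers, 11 were lower and 0 higher, with a median of -0.83, and 7 stayed lower with library totals. The C-type lectin Clec4f, found on Kupffer cells alone in the liver, went from 269.8, 277 and 298 to 135, 147 and 152 CPM (-0.96 ± 0.08), C1qa and Csf1r changed by -0.99 and -0.85, and Marco was not called (-0.19). Endothelial markers gave 9 lower of 12 and stellate cell markers 7 of 12, whereas library totals gave 3 lower and 2 higher endothelial markers and 2 lower stellate markers. Blood cell markers gave 7 lower of 9 tested, including the red cell enzyme Alas2 (-1.72) and the neutrophil proteins S100a8 and S100a9 (-2.49 and -2.34), and the lymphocyte genes Cd3e and Cd79a were below the count filter. Cholangiocyte markers gave 2 lower of 6. In each mouse, the log2 level of a list was taken as the median over its markers, each relative to its WT mean. For the Kupffer markers it ran from -0.06 to 0.15 in WT and -0.91 to -0.68 in BM. The endothelial markers gave -0.06 to 0.09 in WT and -0.50 to -0.34 in BM. The stellate markers gave -0.07 to 0.22 in WT and -0.83 to -0.35 in BM. The blood markers gave -0.05 to 0.11 in WT and -1.11 to -0.59 in BM. The hepatocyte markers gave -0.06 to 0.05 in WT and -0.92 to -0.67 in BM. These markers moved in the same direction as the acute-phase and zone 1 genes, and their part in those results was not tested. For the secreted proteins and the zone 1 genes, the hepatocyte markers, several of which are secreted proteins themselves, moved with the result as well.

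Most genes called in RNA were called in the same direction in RPFs. Among 10528 genes tested in both, 1538 were higher in both, 1461 lower in both and 9 were called in opposite directions, while 5198 were called in neither. Of the genes higher in RPFs, 62.0% were also higher in RNA, and of those higher in RNA, 82.6% were also higher in RPFs. The counterparts for lower genes were 66.0% and 82.1%. Translation efficiency (TE, the change of RPFs beyond that of RNA, tested as the interaction of genotype and library type) was called for 235 of the same 10528 genes at an adjusted p under 0.1, or 2.23%, with 180 higher (1.71%) and 55 lower (0.522%), and 1059 genes were under an unadjusted p of 0.05. With the mouse as a block, which joins the RPF and RNA library of 1 liver, the calls were 397 higher and 253 lower, still few beside the level changes. The count also depended on single mice: the calls upward were 82 without WT mouse 3 and 93 without WT mouse 2, while those downward numbered 17 when WT mouse 3 was left out, 28 when WT mouse 1 was, and 23 or 29 when BM mouse 2 or BM mouse 3 was.

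TE calls depended on whether the RPF and RNA libraries of 1 mouse were joined. Without the mouse as a block, TE was called for 0 of 27 zone 1 genes, 0 of 44 urea cycle and amino acid genes, 0 of 35 plasma carriers, 0 of 36 coagulation and complement genes, 0 of 23 acute-phase genes, 0 of 34 fatty acid oxidation genes and 1 of 81 ribosomal proteins. With the block, these counts became 2, 1, 6, 4, 8, 2 and 12 in the same order, where 6.17% of all genes were called, 3.77% higher and 2.4% lower. Among the major urinary proteins TE was called for 5 of 16 genes (14 with the block). It was higher for Mup1, Mup4, Mup7 and Mup22 and lower for Mup17, with the limit on single members given above. Of 26 zone 3 genes, 23 had a TE change below 0 (median -0.19). TE was called lower for 3 (8 with the block): Cyp1a2 (1.67 in RNA, 0.94 in RPFs, TE -0.74 ± 0.14), Ahr (1.14, 0.68, TE -0.46 ± 0.12) and Cyp2c37 (1.10, 0.48, TE -0.63 ± 0.17). Cyp2e1 showed the same order of values (1.37 and 0.68) without a call (adjusted p = 0.16), and was called with the block (-0.70, adjusted p = 8.6e-06). In lipogenesis, TE was lower for Elovl5 (-0.61), the desaturase Fads1 (-0.49) and the malic enzyme Me1 (-0.55). Calls upward included Dkc1, Nop58 and Nat10 in ribosome biogenesis (Dkc1 0.81), Rrm1, Rrm2 and Impdh1 in nucleotide synthesis (Rrm1 1.11), and Phgdh (2.96 ± 0.54) and Mthfd1l (2.34 ± 0.44) in serine and one-carbon metabolism. Among genes with at least 10 counts in every library, TE was called for 1.27% (0.874% higher and 0.395% lower). Of the genes named above, Cyp1a2, Elovl5, Fads1, Dkc1, Rrm1, Impdh1, Mup1, Mup22 and Mup17 were called there. Ahr, Cyp2c37, Me1, Nop58, Nat10, Rrm2, Mup4 and Mup7 were not called, and Phgdh and Mthfd1l did not reach this minimum. The calls then numbered 1 of 26 zone 3 genes, 3 of 15 major urinary proteins, 2 of 22 lipogenesis genes, 1 of 44 ribosome biogenesis genes, 2 of 33 nucleotide genes and 0 of 21 serine and one-carbon genes. Of the cell cycle lists, 19 of 53 G2/M genes were called higher in TE and 0 lower. Of 37 DNA replication genes, 12 were higher and 1 lower. With the block, 30 G2/M and 14 DNA replication genes were higher. Many of these genes passed the count filter through the BM libraries, where they are high. With the minimum of 10 counts, 7 of 21 G2/M genes and 7 of 26 DNA replication genes were called higher.

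**Figure D4:**
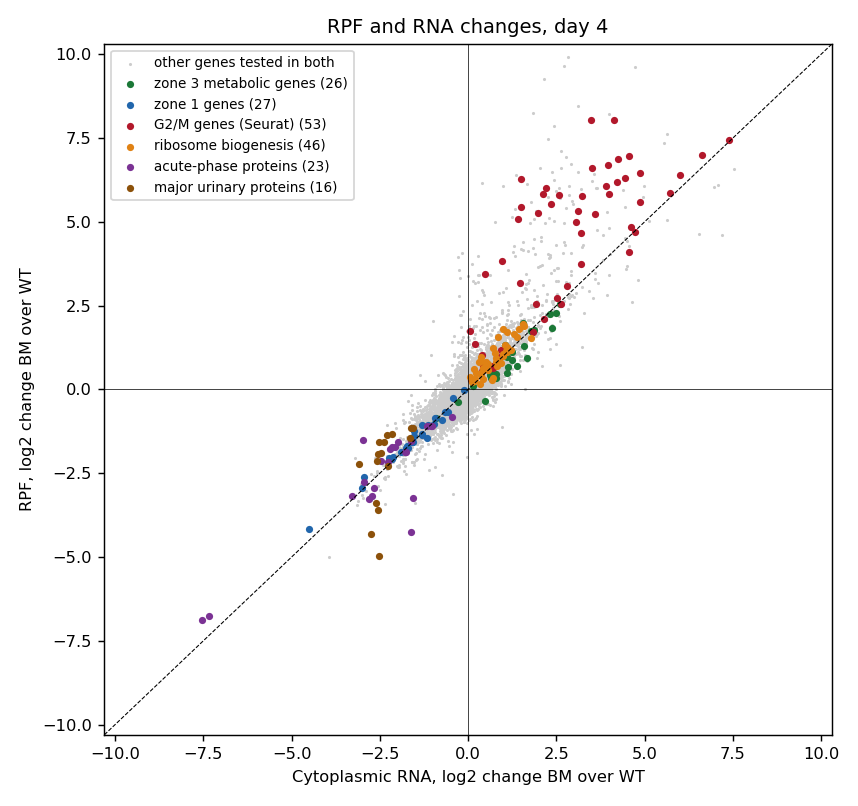
Log2 change between BM and WT of RNA (horizontal) and of RPFs (vertical) for every gene tested in both, with the zone 3, zone 1, G2/M, ribosome biogenesis, acute-phase and major urinary protein genes in colour and a dashed line of equal change. The acute-phase genes and most zone 1 genes lie below 0 in both. The zone 1 genes lie near the line (TE changes from -0.29 to 0.34), whereas some acute-phase genes lie far from it (-2.63 to 1.48). Most G2/M genes lie above the line. Their medians of 5.07 in RPFs and 2.64 in RNA become 2.10 and 1.51 among genes with at least 10 counts in every library.

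BM was also compared with mice of 1 allele each, to place the programme. These fits share the BM libraries with the comparison above, so their values are given side by side only, with RPF levels scaled over all 12 day 4 RPF libraries. BM differed from M on 1640 genes upward and 1678 downward of 11411 (29.1%; 14.4% higher and 14.7% lower; 1053 upward without M mouse 1), and from B on 2193 upward and 1917 downward of 11373 (36.1%; 19.3% higher and 16.9% lower). The zone 3 genes were 20 higher and 1 lower of 26 against M, but 1 higher and 12 lower against B, where the median of -0.25 turned to 0.06 with library totals (2 higher and 5 lower). Glul stood at 813 ± 17.4 CPM in WT, 3761 ± 762 CPM in B, 674 ± 108 CPM in M, and 3893 ± 314 CPM in BM (mean ± SD, n = 3). The log2 difference between BM and B for Glul was 0.08 ± 0.15 (adjusted p = 0.72). Oat and Cyp1a2 had BM means between those of WT and B, with 3038 ± 791 CPM in B and 1888 ± 269.5 CPM in BM for Oat, and 2899 ± 608 CPM in B and 1985 ± 125 CPM in BM for Cyp1a2. The differences from B were -0.66 ± 0.17 for Oat and -0.52 ± 0.15 for Cyp1a2. Neither was called with library totals (-0.35 and -0.21).

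The zone 1 genes were lower in BM than in either single-allele group, 26 of 28 against M and 24 of 28 against B, with medians of -1.33 and -1.07. Hal stood at 572 ± 92.1 CPM in WT, 483 ± 159 CPM in B, 627 ± 43.5 CPM in M, and 74.7 ± 8.42 CPM in BM. The means of B and M lay on either side of that of WT, and BM differed from M by -3.08 ± 0.10 (adjusted p = 2.8e-07) and from B by -2.67 ± 0.21 (adjusted p = 1.5e-05). Pck1 stood at 3277 ± 752 CPM in WT, 1178 ± 272 CPM in B, 1684 ± 224 CPM in M, and 182 ± 95.6 CPM in BM, with the means of B and M between those of WT and BM. Cyp2f2 stood at 2555 ± 106 CPM in WT, 1763 ± 421 CPM in B, 1949 ± 80.3 CPM in M, and 412 ± 94.6 CPM in BM, and Fbp1 at 857 ± 38.7 CPM in WT, 703 ± 213 CPM in B, 834 ± 50.4 CPM in M, and 254 ± 20.6 CPM in BM. For these 4 genes no BM mouse reached the level of any B or M mouse. The interaction of both alleles was not tested.

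The growth lists differed in how far BM stood from M. The ribosome biogenesis genes were 35 higher and 0 lower of 46 against M, and 45 higher and 0 lower against B. Against M, 21 of 81 cytosolic ribosomal proteins were higher and 0 lower, 12 of 47 translation factors higher and 1 lower, 3 of 13 polyamine genes higher and 1 lower, 2 of 11 MYC network genes higher and 0 lower, and 1 of 78 mitochondrial ribosomal proteins higher and 3 lower, beside 14.4% higher over all genes. With library totals these lists gave 78, 39, 6, 4 and 24 higher in the same order. Ncl stood at 224 ± 17.4 CPM in WT, 220.2 ± 17.0 CPM in B, 378 ± 33.3 CPM in M, and 654 ± 87.0 CPM in BM, with like means in WT and B. Rrm2 stood at 7.49 ± 1.07 CPM in WT, 13.9 ± 1.31 CPM in B, 47.3 ± 3.55 CPM in M, and 115 ± 43.6 CPM in BM, and Cad at 40.3 ± 2.67 CPM in WT, 27.5 ± 5.61 CPM in B, 72.7 ± 7.01 CPM in M, and 119 ± 18.3 CPM in BM. Phgdh stood at 1.00 ± 0.384 CPM in WT, 1.06 ± 0.335 CPM in B, 1.21 ± 0.198 CPM in M, and 9.25 ± 4.03 CPM in BM, on few reads outside BM. All 53 G2/M genes tested were higher in BM than in M and than in B, with medians of 2.03 and 4.09. Among genes with at least 10 counts in every library of the comparison, 50 of 50 were higher against M and 37 of 37 against B, with medians of 2.03 and 3.40.

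Secreted and lipid genes showed other orders. Of the plasma carriers, 26 of 35 were lower against M and 27 against B. Alb stood at 50599.5 ± 4408 CPM in WT, 42394 ± 5104 CPM in B, 36604 ± 6072 CPM in M, and 23253 ± 2667 CPM in BM, and Fga at 13626 ± 1818 CPM in WT, 6860.3 ± 1333 CPM in B, 7135 ± 543 CPM in M, and 4099.8 ± 535 CPM in BM. The acute-phase genes were 18 lower of 23 against M, and 10 lower and 2 higher against B. Saa1 stood at 968 ± 697 CPM in WT, 13.7 ± 4.06 CPM in B, 41.7 ± 36.1 CPM in M, and 8.98 ± 0.381 CPM in BM, so that the mean of every group with an allele was below each WT mouse. Hspa5 stood at 3179.9 ± 401 CPM in WT, 2029 ± 309 CPM in B, 1814 ± 338 CPM in M, and 1883 ± 102 CPM in BM, with the 3 groups that carry an allele near each other. Scd1 stood at 3311 ± 374 CPM in WT, 3832 ± 116 CPM in B, 2165 ± 335 CPM in M, and 1085 ± 182 CPM in BM, and Cyp4a14 at 3.97 ± 1.31 CPM in WT, 44.1 ± 32.5 CPM in B, 2.27 ± 1.05 CPM in M, and 78.5 ± 16.9 CPM in BM, and for Cyp4a14 the means of B and BM were above those of WT and M. Lipogenesis genes were 13 lower of 24 against M and 19 against B, with 0 higher in both. Cholesterol genes were 5 lower and 2 higher of 25 against M (1 lower and 8 higher with library totals), and 22 lower and 0 higher against B.

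**Figure D5:**
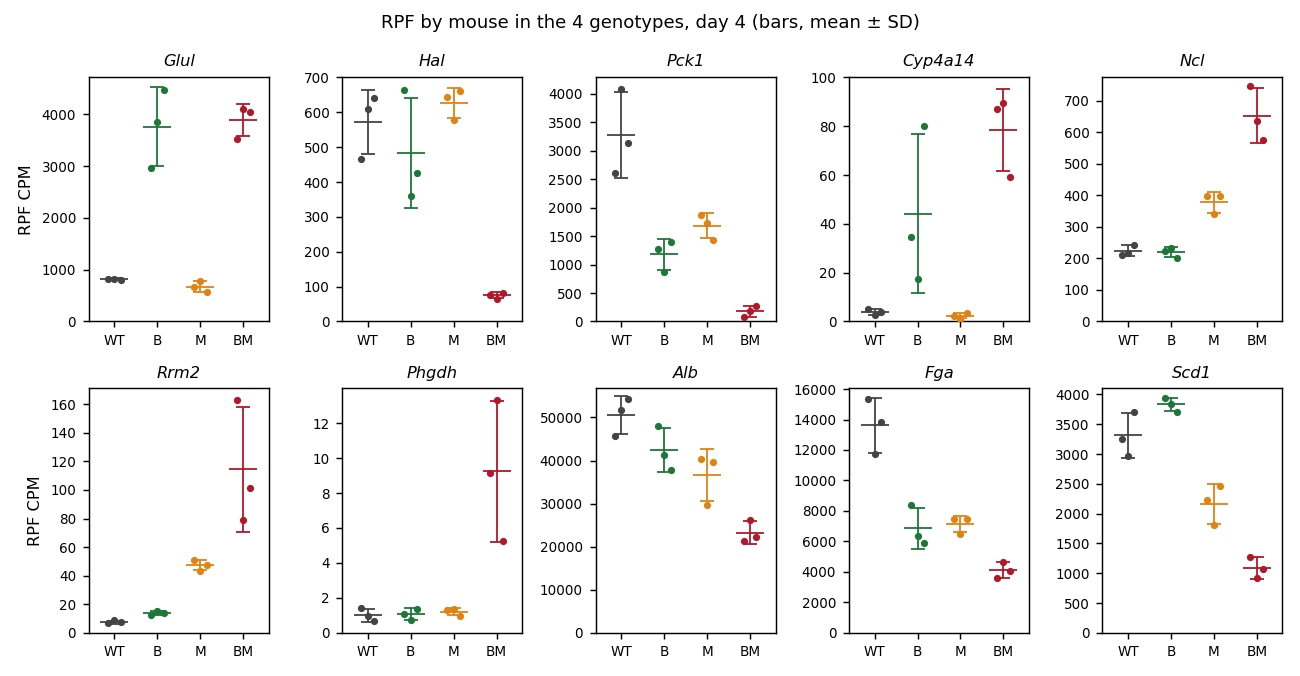
RPF level (CPM over all 12 day 4 RPF libraries) of 10 genes in WT, B, M and BM mice, with 1 point per mouse and the mean ± SD of 3 mice. Glul and Cyp4a14 have higher means in B and BM than in WT and M, Ncl, Rrm2 and Phgdh are highest in BM, and Hal and Pck1 are lowest in BM.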

How the data were processed

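RPF and cytoplasmic RNA libraries of the same livers were compared in 3 BM and 3 WT mice. The RPF files that the authors deposited hold counts per gene, made after adapter removal (cutadapt 1.18) and collapse by molecular identifier, of fragments inside the coding region of 1 transcript per gene with both ends of that region left out. For RNA, the authors deposited RSEM 1.3.3 expected counts per isoform on Bowtie2 2.3.5.1 alignments (GENCODE on GRCm39), which were summed per gene and rounded here. BM RPF libraries were deeper than WT RPF libraries, and intervals cover no more than the spread between mice.

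Each library type was fitted with edgeR 4.0.16 in R 4.3.3 (TMM, filterByExpr with a minimum count of 10 and a minimum total of 15, quasi-likelihood test, Benjamini-Hochberg over all genes, adjusted p under 0.05). TE was the interaction of genotype and library type (adjusted p under 0.1). Changes are log2 values ± SE of BM over WT, CPM are TMM-scaled counts per 1000000, and shares are raw percents of a library's counts, tested by an exact two-sided permutation over mice. BM was fitted against M and against B in the same way. The fit was tested on simulated data.

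Genes were described in 42 lists, and named from these lists, from genes the study names, and as the 10 largest changes a direction. Members and lists were chosen with earlier results of these data known, so counts are to be read against all genes. The only test of a list as a whole was the permutation of its share over mice. Its p-values come from lists chosen in this way and are no independent support. Alternatives were DESeq2 1.42.0, other scalings, other count filters, a replicate block and leaving out each mouse. RPF and RNA libraries with 1 replicate number came from 1 mouse.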

Additional observations from a re-analysis of the deposited data

How the results depend on the processing

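Of the settings tried, the scaling moved the counts of level calls most. With library totals only, BM against WT gave 6160 genes higher and 839 lower in RPFs and 6943 and 512 in RNA, BM against M 3627 and 832, and BM against B 4918 and 621. Among the named genes whose change was called with at least 1 of these scalings, log2 changes then turned sign for Apob (0.14 in RPFs, 0.31 in RNA), Hnf4a (0.0081 and 0.066), Ctnnb1 (0.40 and 0.38), Mlx (0.11 and 0.18), Mtor (0.40 in RPFs), Fads1 (0.16 in RPFs), Igfbp2 (0.056 in RNA), Me1 (0.44 in RNA) and Bmal1 (0.38 in RNA). Changes called with neither scaling are not listed. Median-of-ratios factors, DESeq2 (2163 higher and 2042 lower in RPFs, 1555 and 1465 in RNA) and a replicate block across genotypes (2489 and 2268 in RPFs, 1896 and 1826 in RNA) kept the counts of calls within 1.5 times. Livers of WT and BM with 1 number did not deviate together (correlations of -0.018, -0.027 and -0.031 in RPFs and -0.044, -0.027 and 0.086 in RNA), no RPF library correlated best with its own number, and the block tests no design. For TE, where the block joins the libraries of 1 mouse, it gave 397 higher and 253 lower, and at least 10 counts in every library gave 82 higher.

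Group medians moved with the count filter. With at least 10 counts in every library they were 1.40 (RPFs) and 1.65 (RNA) for Wnt genes, -0.47 and -0.20 for serine and one-carbon genes, 2.10 and 1.51 for G2/M genes and 0.68 (RNA) for DNA replication, and with no filter 1.72 and 1.49 for Wnt genes, -0.25 and -0.030 for serine and one-carbon genes, -1.39 (RNA) for zone 1 and -0.40 (RNA) for lipogenesis. Ratios of BM to WT shares moved with the denominator. Without the 10 most abundant genes they were 0.565, 0.751 and 2.01 in RPFs for coagulation, apolipoproteins and zone 3, and in RNA 0.512 and 0.721 for coagulation and apolipoproteins, 0.240 for major urinary proteins, 0.500 for zone 1, 2.51 for zone 3 and 2.21 for ribosomal proteins. Without major urinary protein genes they were, in RNA, 0.514 for plasma carriers, 0.875 for apolipoproteins, 0.468 for zone 1, 2.35 for zone 3, 2.07 for ribosomal proteins and 2.29 for ribosome biogenesis. The set of genes, or the denominator, is what these settings change.

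Leaving out each mouse gave 2174 to 2379 genes higher and 1969 to 2174 lower in RPFs, 82 to 167 higher and 17 to 43 lower in TE, and 1053 to 1561 higher in BM against M (lowest without M mouse 1). Medians in RPFs ran from 1.79 to 2.13 for Wnt genes, -1.49 to -1.34 for zone 1, -0.28 to -0.20 for glycolysis, -0.132 to -0.0083 for bile acids, 0.22 to 0.37 for translation factors, -0.77 to -0.69 for apolipoproteins, -0.83 to -0.65 for chaperones and -0.26 to -0.20 for oxidative phosphorylation. Those of cholesterol genes ran from -0.53 to -0.30 and of stellate markers from -0.72 to -0.44. For fatty acid oxidation the medians ran from 0.022 to 0.132 in RPFs and 0.083 to 0.245 in RNA. Medians in RNA ran from 1.66 to 1.82 for Wnt genes, -1.53 to -1.41 for zone 1, -0.087 to 0.087 for bile acids, 0.68 to 0.81 for ribosome biogenesis, 0.19 to 0.26 for translation factors, -0.68 to -0.45 for chaperones, -0.75 to -0.60 for endothelial markers, -0.26 to -0.12 for P450s and 0.13 to 0.20 for mitochondrial ribosomal proteins. The exact test of 3 against 3 mice cannot pass 0.05, so shares were read by overlap. Genes with under 10 counts in a library (28 of the 53 G2/M genes in RPFs) have the least certain changes.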
